A study of Mus musculus with 12 samples.

Results

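The 699 changed ATAC-seq peaks at the ends of genes in CD8+ T progenitor (T_prog_) cells were examined, of 23932 peaks in the deposited comparison of UTX-deficient with UTX-sufficient cells. A peak was a member when the authors' HOMER annotation placed it at a transcription termination site (TTS, the stretch around the annotated end of a transcript, 408 peaks) or in a 3' UTR (the transcribed stretch after the stop codon, 291 peaks). The cells came from the pancreatic lymph nodes of female *NOD-TCR 8.3* mice, nonobese diabetic mice with a transgenic T cell receptor that recognises the β cell antigen IGRP. In *UTX TCD* mice, *Lck-Cre* deletes a floxed *Kdm6a*, the X-linked gene encoding UTX, throughout the T cell lineage. WT mice carry the floxed gene without Cre. Each genotype had 3 RNA-seq and 3 Omni-ATAC-seq libraries. The labels give the gate as Ly108 without CXCR6 and the study's methods as Ly108+CD39-, and the age at this sort was not given in the sources used here. The floxed controls share the receptor transgene and the NOD background, so the values describe T cells of a single antigen specificity after deletion early in T cell development. Recovered RNA-seq reads per library numbered 146456724, 144503203 and 193568919 for the WT group, against 61512402, 175462433 and 187275082 for the UTX TCD group. ATAC-seq depth per library was not used here. WT replicate 2 stood apart in RNA-seq, with a chi-square per gene of 72.5 and 110.4 against WT replicates 1 and 3, which differed from each other by 29.2. The UTX TCD pairs had values from 12.5 to 47.8, and chi-square grows with depth.

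Enhancers can lie in or just beyond the last exon of a gene, a short gene can sit wholly within a CpG island, and the end of a gene can be close to the start of its neighbour. UTX demethylates histone H3 lysine 27 and is part of the MLL3/4 complexes, which act at enhancers, and it also has functions that do not need its demethylase activity. The labelled genotype and cell type were read from RNA-seq first. *Kdm6a* had normalized counts of 28365, 28949 and 29172 in WT cells and 24158, 24792 and 24579 in UTX TCD cells. The groups did not overlap, and the log2 fold change of -0.23 (SE 0.04, limma adjusted p = 0.00114) was short of the limit of 0.5 used here. Counts per gene include exons outside the deleted part, so this level does not measure the deletion. *Cd3e*, *Cd3d*, *Cd8a*, *Cd8b1* and *Lck* together summed to 812007, 780820 and 797568 in WT cells and 810885, 794729 and 724725 in UTX TCD cells. Within this sum *Cd8b1* and *Cd3d* had log2 fold changes of -0.37 and -0.28 (limma adjusted p = 0.00634 and 0.00485), *Lck* -0.17, *Cd8a* 0.13 and *Cd3e* 0.17, and none was called. Of the CD4+ T cell markers, *Cd4* averaged 92.3 and 55.9 and was called lower (log2 fold change -0.74, limma adjusted p = 0.0384), and *Foxp3* averaged 275 and 283. The NK cell markers *Ncr1* and *Klrb1c* averaged 2.31 and 33.6 in WT cells and 0.983 and 15.0 in UTX TCD cells. The exocrine markers *Cpa1* and *Prss2* averaged 0.839 and 153 in WT cells and 0 and 119 in UTX TCD cells, and the red cell markers *Hbb-bs* and *Hba-a1* averaged 6.72 and 42.3 against 6.21 and 59.9. *Hba-a1* was at 29.2, 20.8 and 129.7 in the UTX TCD libraries, so its higher mean there rested on replicate 3. *Entpd1*, which encodes CD39, averaged 17.3 and 7.24 and was not called (limma adjusted p = 0.131). Its WT counts were 10.9, 29.6 and 11.4, so replicate 2 carried much of the WT mean. *Cxcr6* averaged 12033 in WT cells and 5658 in UTX TCD cells and was called lower (log2 fold change -1.07, limma adjusted p = 0.000131). The B cell markers *Ms4a1*, *Cd79a* and *Cd79b* summed to 2923, 2415 and 2758 in WT cells and 1194, 1069 and 922 in UTX TCD cells, most of it *Cd79b*, which was called lower while *Ms4a1* was called higher. The myeloid markers *Lyz2*, *Csf1r*, *Cd68*, *Adgre1* and *Itgax* summed to 820, 814 and 666 in WT cells and 1032, 786 and 971 in UTX TCD cells, most of it *Cd68*, while *Csf1r* and *Itgax* were called lower. The part of such cells in the results was not tested, and fewer cells of a type cannot be told apart from less RNA per cell. Of the stromal markers, *Col1a1* averaged 390 and 456 and *Pecam1*, which T cells also express, 30622 and 35787. Neither was called.

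Accessibility is given as the authors' mean over the libraries of a genotype, a log2 concentration of normalized reads per peak, and a difference is UTX TCD minus WT. There is no spread between libraries behind these means here, and the table holds only peaks that passed the authors' own comparison, so the differences are a description with no test. A gain or a loss of accessibility is a positive or negative difference. Of the 699 gene-end peaks, 478 (68.4%) were more accessible in UTX TCD cells, beside 68.8% of all listed peaks. The difference was over 0.5 in 346 gene-end peaks (49.5%, against 49.3% of all listed peaks) and under -0.5 in 164 (23.5%, against 23.8%). The median difference was 0.49 both at gene ends and over all listed peaks. Gene ends therefore had nearly the same balance of gain and loss as the table as a whole. They resembled introns, where 65.6% of 10808 peaks were more accessible, and intergenic peaks, with 65.2% of 8534. Of the 2621 promoter peaks 85.3% were more accessible, of the 279 peaks in 5' UTRs 91.0% and of the 851 exon peaks 86.6%. Losses under -0.5 made up 4.69% of promoter peaks. The differences between these classes were not tested. TTS and 3' UTR peaks were alike, with 67.6% and 69.4% more accessible and median differences of 0.48 and 0.52.

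The annotation could be placed on the genome for 696 of the 699 peaks. TTS peaks were centred from 96 bp before to 998 bp beyond the end of the annotated transcript, with a median of 482 bp beyond it. 3' UTR peaks were centred a median of 1162 bp before the end, and up to 19397 bp before it. The median distance to the nearest transcription start site (TSS) was 11201 bp. Only 40 peaks lay within 1 kb of the start that HOMER names as nearest, and 53 within 1 kb of any start in the RefSeq annotation of GRCm38, the build called mm10. Most gene-end peaks were thus far from annotated promoters. The 512 peaks over 5 kb from a start were more accessible in 67.4% of cases and the 187 nearer ones in 71.1%. The 53 peaks close to any annotated start were more accessible in 77.4%.

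Of the 10 largest gains of accessibility at gene ends, 6 were at genes with normalized counts at or near 0 in T_prog_ cells. The peak just beyond *Hotair*, a long noncoding RNA of the HoxC cluster, had authors' log2 means of 3.27 in WT cells and 6.46 in UTX TCD cells, a difference of 3.19 (chr15:102942932-102943332). At *Tlx3*, a homeobox gene of neurons that is activated in some T cell leukemias, the authors' means were 3.50 and 6.57 (difference 3.07). Similar differences stood at *Aqp2*, the vasopressin-regulated water channel of the kidney (2.71), at *Dlx6os2*, antisense to the homeobox gene *Dlx6* (2.67), at *En1*, a homeobox gene of the midbrain and limb (2.55), and at *Foxl2*, a forkhead factor of the ovary (2.52). RNA-seq listed *Tlx3*, *Aqp2* and *Dlx6os2* at 0 in all 6 libraries. The mean normalized counts of *Hotair*, *En1* and *Foxl2* were at most 1.98 in either genotype, so none of these genes could be tested. The remaining peaks among the 10 largest gains ended *Dzank1* (2.76), *Fam126a* (2.67), *Abcc10* (2.54) and *Scn8a*, a neuronal sodium channel (2.48). The promoter nearest to the *Dzank1* peak, 6283 bp away, was another gene's. The start nearest to the *Scn8a* peak was 7817 bp away, closer than the outermost annotated start of *Scn8a*. *Dzank1* averaged 37.1 and 58.4 without overlap and was not called (log2 fold change 0.68, SE 0.28, limma adjusted p = 0.0839). Without WT replicate 1 its log2 fold change was 0.42. *Scn8a* averaged 9.16 and 10.9 and was not called (limma adjusted p = 0.667). *Abcc10*, a drug exporter, had normalized counts of 3802, 4013 and 3439 in WT cells and 4519, 4069 and 4472 in UTX TCD cells, and was not called (log2 fold change 0.22, SE 0.07, limma adjusted p = 0.0365). The symbol *Fam126a* had no match in the RNA-seq table, which uses a newer symbol that the synonyms used here did not link. Its expression was therefore not read. Of the 123 genes ended by a peak that gained over 1, 63 were expressed highly enough to be tested. Of these 63, 18 were called higher (28.6%, against 10.5% of all tested genes) and 1 lower (1.59%, against 7.05%).

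Of the 62 genes ended by a peak with a difference under -1, 53 were expressed highly enough to be tested. Of these 53, 13 were called lower (24.5%, against 7.05% of all tested genes) and 4 higher (7.55%, against 10.5%). The largest loss was beyond *Hspa1a*, which encodes an inducible HSP70 chaperone, where the authors' log2 means were 9.81 and 6.30 (chr17:34968384-34968784, difference -3.51). *Hspa1a* had normalized counts of 895.5, 89.8 and 1051 in WT cells and 215.9, 244.2 and 53.1 in UTX TCD cells. The groups overlapped because WT replicate 2 was low, and the gene was not called (log2 fold change -1.63, limma adjusted p = 0.181). Without WT replicate 2 it was called at -2.77 (limma adjusted p = 0.00894), and without any other library it was not. It was -0.93 without UTX TCD replicate 3 (limma adjusted p = 0.467), -1.005 without WT replicate 3 and -1.12 without WT replicate 1. Reads of *Hspa1a* cannot be separated with certainty from those of its near-identical neighbour *Hspa1b*.

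Some other large losses came without a called change of the gene they ended. The peak with the largest loss in a 3' UTR (-3.18) is not among those described here. The 3' UTR peak of *Zmiz2*, a transcriptional coactivator, differed by -3.09, while its normalized counts were 24593, 22712 and 24667 in WT cells and 24127, 23552 and 23136 in UTX TCD cells. *Tnrc6b*, which acts with Argonaute in microRNA silencing, was ended by 3 peaks with differences of -2.65, -2.45 and -0.71. Its counts were 87558, 91244 and 89093 in WT cells and 95554, 98374 and 90476 in UTX TCD cells. Neither gene passed the test (limma adjusted p = 0.727 and 0.178). *Ksr1*, a scaffold of the RAF-MEK-ERK cascade, lost its 3' UTR peak (-2.92) while its counts of 3550, 3461 and 3038 in WT cells and 4564, 4135 and 4175 in UTX TCD cells gave a log2 fold change of 0.36, under the fold limit (SE 0.07, limma adjusted p = 0.00392). *BC004004* lost peaks in its 3' UTR (-3.16) and just beyond it (-0.95), with a log2 fold change of -0.42 (SE 0.10, limma adjusted p = 0.00985), also under the limit, and -0.53 without WT replicate 2 (limma adjusted p = 0.00154). The promoter nearest to its 3' UTR peak was another gene's. The nearest start lay 4282 bp from the *Zmiz2* peak and at most 9345 bp from the *Tnrc6b* peaks. Both were closer than the outermost annotated start of the ended gene. Expression from these nearer starts is not described here.

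The median gene-end peak held 50.1% G and C when more accessible and 51.1% when less accessible, so total G and C content was alike. CpG dinucleotides differed more. Of the 478 more accessible gene-end peaks, 60 (12.6%) held at least 20 of them in their 401 bp, and of the 221 less accessible ones, 5 (2.26%). All listed peaks showed the same order, with 18.9% and 4.22%. Past a difference of 1 it was 29 of 124 gene-end peaks (23.4%), and under -1 it was 0 of 65. The limit of 20 was chosen after the values were seen. Over all listed peaks 14.3% held that many, and 9.30% of all gene-end peaks. The *Scn8a* peak held 54 CpGs, the *Dlx6os2* peak 46 and the *Hotair* peak 38.

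Motif letters were searched on both strands of each peak in the C57BL/6J reference, which can differ from NOD. TGTGGTT, bound by RUNX factors, was found in 23.5% of the less accessible gene-end peaks and 15.5% of the more accessible ones, beside 17.7% of all listed peaks. The AP-1 letters TGANTCA were found in 31 of 221 (14.0%) and 43 of 478, beside 12.8%. Letters of the CTCF core were found in 13.6% and 24.1%, beside 15.3%. Among all listed peaks these letters were in 9.58% of less and 17.8% of more accessible peaks, and the RUNX letters in 21.5% and 15.9%. ETS letters (CNGGAAGT) were in 15.8% and 13.4% of less and more accessible gene-end peaks, beside 14.4% of all listed peaks, and STAT letters (TTCNNNGAA) in 14.0% and 14.2%, beside 11.9%. TCF/LEF letters (CTTTGAA or CTTTGAT) were in 14.9% and 16.7%, beside 19.3%, and over all listed peaks the order was the opposite, with 20.1% and 19.0%. Among the 65 gene-end peaks with a difference under -1 and the 124 with a difference over 1, the RUNX letters were in 29.2% and 10.5%, the AP-1 letters in 18.5% and 7.26% and the CTCF letters in 10.8% and 15.3%. The ETS letters were in 18.5% and 13.7% of these peaks, the TCF/LEF letters in 15.4% and 18.5% and the STAT letters in 20% and 11.3%. None of these differences was tested. A match is not a bound site. The runs below show the motif in capitals within peaks of genes described here, from mm10 on the strand that reads the motif, and were chosen because these peaks had differences under -1.
*Tnrc6b* 3' UTR peak, RUNX, chr15:80938761-80938790, plus strand: ggctttgggttTGTGGTTtgcctattctct
*Ksr1* 3' UTR peak, RUNX, chr11:79015687-79015716, plus strand: ctgctccttagTGTGGTTctcggcccaagc
*Art4* 3' UTR peak, AP-1, chr6:136849183-136849212, plus strand: gctggaggaagTGAGTCAcaaggggcaggc

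The genes named as ended could be checked against the poly(A) signal, the letters that direct cleavage of the transcript. AATAAA or its common variant ATTAAA lay in the last 40 bases of 473 of 613 distinct protein-coding transcript ends (77.2%). The share was 77.4% where the peak was more accessible and 76.7% where it was less accessible. Annotated ends of both directions thus carried the signal about equally often. The last 30 bases of ended transcripts, with the signal in capitals, show where the transcript stops beside its peak.
*Hspa1a*, chr17:34969359-34969388, minus strand: tttgaaAATAAActtcaaaatcacttgcca
*Nrn1*, chr13:36725622-36725651, minus strand: gtataaAATAAAagttattgtttgaaatgg
*Gimap3*, chr6:48764464-48764493, minus strand: cctAATAAAcagagaccttgataggaaaga
*Hotair*, chr15:102944062-102944091, minus strand: aaatgcaAATAAAttcttgtttgtgaatct

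Whether expression moved with the gene end was then read from RNA-seq. The 699 peaks ended 675 genes, of which 636 were matched in the RNA-seq table by symbol or synonym and 464 reached a mean of 10 normalized counts and entered the limma fit, on the log2 scale after adding 1. Calls needed an adjusted p below 0.05 together with a log2 fold change beyond 0.5 in either direction. Of the 464 tested genes, 98 (21.1%) were called, against 17.6% of all 14459 tested genes. Of these, 54 were higher (11.6%, against 10.5%) and 44 lower (9.48%, against 7.05%). Over all ended genes the share called was therefore near the background, and most called genes moved in the direction of the peak. Where the gene-end peak was the only listed peak of the gene, 7 of 12 called genes did so. Past a difference of 0.5 in either direction 23.3% of 331 tested genes were called, and past 1 it was 31.0% of 116. The differences between these shares were not tested. Where the gene-end peak was more accessible, 45 of 289 tested genes were higher and 13 lower. Where it was less accessible, 9 of 175 were higher and 31 lower. In all, 76 of the 98 called genes (77.6%) moved the same way as their gene-end peak, beside 62.8% of the 366 genes that were tested and not called. The median log2 fold change was 0.08 for genes with a more accessible end and -0.16 for those with a less accessible end. All tested genes had a median near 0. Across the 464 genes, Pearson's r between the 2 differences was 0.35. Genes are not independent replicates, so r describes these tables only.

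Among genes with a higher transcript, *Nrn1* stood first. It encodes neuritin, a small membrane-anchored protein known from neurons and anergic T cells. Its normalized counts were 527, 751 and 532 in WT cells and 12126, 12271 and 10341 in UTX TCD cells, and the peak beyond its end differed by 1.24 (chr13:36724748-36725148). The groups were far apart (log2 fold change 4.28, SE 0.13, limma adjusted p = 8.91e-08). *Rnf43*, a ubiquitin ligase that removes Wnt receptors, had counts of 677, 531 and 545 in WT cells and 7083, 7266 and 8139 in UTX TCD cells (log2 fold change 3.69, SE 0.10, limma adjusted p = 4.48e-08). Its 3' UTR peak was open in both genotypes, at 10.82 and 11.05 on the authors' log2 scale, and differed by only 0.24. The size of the change in transcript and at the gene end thus differed widely between these genes. *Gimap3*, of a family of GTPases that act in lymphocyte survival, had counts of 61338, 66704 and 64210 in WT cells and 144413, 146647 and 146594 in UTX TCD cells, beside a TTS peak with a difference of 1.71. The groups did not overlap (log2 fold change 1.19, SE 0.05, limma adjusted p = 2.98e-07).

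Of the 8 largest rises, 5 started from low counts. *Ier5l* averaged 1.83 in WT cells and 33.7 in UTX TCD cells. *H1f10*, a linker histone gene, averaged 2.19 ± 2.29 and 20.6 ± 8.31, and the long noncoding RNA *C130021I20Rik* averaged 6.16 ± 4.62 and 50.3 ± 18.2 (SD, n = 3). The gene-end peaks of *Ier5l*, *H1f10* and *C130021I20Rik* had differences of 1.04, 1.58 and 1.52. *Map3k20*, a stress kinase, and *Srgap1*, which acts on small GTPases, averaged 10.8 and 9.91 in WT cells and 41.0 and 28.9 in UTX TCD cells. *Srgap1* was called at a limma adjusted p of 0.0321, and was past the limit neither with edgeR or DESeq2 (DESeq2 adjusted p = 0.0644) nor when any library but WT replicate 2 was left out (limma adjusted p from 0.0645 to 0.0839).

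Several genes with large falls also had a less accessible end. *Art4* is an ADP-ribosyltransferase family gene. Its counts were 2446, 2359 and 2007 in WT cells and 342, 327 and 250 in UTX TCD cells, beside a 3' UTR peak that differed by -1.54 (chr6:136849042-136849442). The groups were far apart (log2 fold change -2.89, limma adjusted p = 9.85e-07). *Fut7*, the fucosyltransferase that makes selectin ligands, averaged 149 ± 30.0 in WT cells and 18.8 ± 0.692 in UTX TCD cells (SD, n = 3), beside a TTS peak with a difference of -0.97. *Plat*, tissue plasminogen activator, averaged 91.7 ± 10.2 and 15.9 ± 5.67 (SD, n = 3), with a difference of -0.90 at its end. *Gm6551* and *2900026A02Rik* averaged 179.5 and 254 in WT cells and 8.95 and 23.6 in UTX TCD cells, with differences of -0.88 and -1.90. Each of these genes was lower, as was the accessibility at its end. The promoter nearest to the *Fut7* peak was that of *Abca2*, a lipid transporter, and the one nearest to the *Plat* peak that of *Ap3m2*, an adaptor protein subunit. Both neighbours were called lower too, with log2 fold changes of -0.76 and -0.75 (limma adjusted p = 7.44e-05 and 2.20e-05).

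In 22 called genes the transcript and the gene end moved in opposite directions. *Abhd15*, known from lipid metabolism in fat cells, had counts of 5382, 5008 and 5697 in WT cells and 722, 729 and 552 in UTX TCD cells, while its 3' UTR peak was slightly more accessible (0.44). Its log2 fold change was -3.01 (SE 0.11, limma adjusted p = 2.24e-07). *Procr*, the endothelial protein C receptor, had counts of 132, 1.97 and 103 in WT cells and was listed at 0 in every UTX TCD library, beside a TTS peak that gained 0.71. It was called lower (limma adjusted p = 0.0113, and 0.0486 without WT replicate 1). Against a floor of 3 reads per library its mean was at least 20.8-fold lower. This bound ran from 13.9-fold without WT replicate 1 to 34.2-fold without UTX TCD replicate 1, and WT replicate 2 was close to the UTX TCD libraries. *Slc6a19*, a neutral amino acid transporter, rose instead, from 280, 327 and 266 to 951, 1007 and 649 (log2 fold change 1.55, SE 0.17, limma adjusted p = 0.000146), while its 3' UTR peak had a difference of -1.38. The nearest start lay 2655 bp from this peak, closer than the outermost annotated start of *Slc6a19*. *Kif5a*, a neuronal kinesin, rose from 62.5 ± 6.02 to 230 ± 30.4 (SD, n = 3) beside a difference of -0.39, and *Stac2* fell from 59.9 ± 27.1 to 19.0 ± 3.27 (SD, n = 3) beside a difference of 0.56.

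Read by gene list, cytokine and chemokine receptors had the most called members at gene ends. Gene-end peaks ended 6 of the 57 listed, of which 1 was higher and 2 lower, beside 9 higher and 10 lower among the 56 tested members of the list. Over all tested genes 10.5% were higher and 7.05% lower, which is the background for each list. *Il4ra*, a receptor chain for interleukins of the type 2 response, had 2 more accessible peaks (differences 1.00 and 0.27). Its counts were 26676, 26343 and 29413 in WT cells and 40082, 44266 and 46123 in UTX TCD cells (log2 fold change 0.66, SE 0.06, limma adjusted p = 6.35e-05). *Il6ra* and *Tnfrsf1b*, receptors for interleukin 6 and tumor necrosis factor, each had a less accessible 3' UTR peak (-0.26 and -0.56). *Il6ra* counts were 32741, 26638 and 33094 in WT cells and 19057, 19011 and 19526 in UTX TCD cells (log2 fold change -0.68, SE 0.08, limma adjusted p = 0.000172). *Tnfrsf1b* counts were 10808, 10874 and 10813 in WT cells and 4202, 4217 and 4814 in UTX TCD cells (log2 fold change -1.30, SE 0.06, limma adjusted p = 8.43e-07). These receptors moved with their gene ends. *Il7r*, with a difference of -0.78 at its TTS, had counts of 38077, 79127 and 37105 in WT cells and 40509, 39892 and 38044 in UTX TCD cells. WT replicate 2 alone was high, and the gene was not called (limma adjusted p = 0.380).

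Of the 34 progenitor and memory transcription factors, 4 were ended by a changed peak, all more accessible, and 1 of these was called, beside 5 higher and 1 lower among the 34 tested. The called gene was *Eomes*, a T-box factor of memory CD8+ T cells, with counts of 13370, 15314 and 13176 in WT cells and 19100, 19086 and 26829 in UTX TCD cells (log2 fold change 0.62, SE 0.12, limma adjusted p = 0.00388) and a TTS difference of 1.02. Without UTX TCD replicate 3 its log2 fold change was 0.46, under the limit. *Ets1*, an ETS factor of naive T cells, had a larger difference of 1.52 in its 3' UTR and was not called (limma adjusted p = 0.453). The *Bcl11b* and *Satb1* ends had 2 more accessible peaks each. Of the effector transcription factors and activation genes, 4 of 51 were ended by a changed peak, beside 11 higher and 5 lower among 50 tested. *Rora*, a nuclear receptor, rose from 849 ± 39.9 to 1298 ± 208 (SD, n = 3; limma adjusted p = 0.00389) with a 3' UTR difference of 1.58. *Dusp2*, a phosphatase of MAP kinases, fell from 11939 ± 1174 to 6107 ± 391 (SD, n = 3; limma adjusted p = 2.14e-05) with a TTS difference of -0.49. *Junb* and *Nr4a1* had less accessible ends (-0.31 and -0.73) and were not called.

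Of the 51 cell death and survival genes, 3 were ended by a changed peak and *Gimap3* was called, beside 7 higher and 2 lower among 49 tested. In the metabolism and transport list, 7 of 48 were ended, 6 of them by a more accessible peak, and 1 was called, beside 3 higher and 2 lower among 48 tested. The called gene was *Hmgcs1*, an enzyme of sterol synthesis, which fell from 11595 ± 188 to 8038 ± 249 (SD, n = 3; limma adjusted p = 2.41e-05) with a 3' UTR difference of -0.42. With libraries scaled to the same sum its log2 fold change was -0.47. No ended member was called among the 5 of the T cell receptor and costimulation list, the 2 adhesion and homing genes or the 2 chromatin regulators. Of all tested members, 0 were higher and 7 lower of 51 in the first list, 3 and 9 of 33 in the second and 0 and 1 of 72 in the third. These include the phosphatase gene *Ptpn6* (difference -1.03). They also include the sort marker *Slamf6* (-0.66), with counts of 27732, 34096 and 23305 in WT cells and 36665, 30980 and 35425 in UTX TCD cells. Changed peaks ended 0 of the 47 effector molecules, of which 7 were higher and 15 lower among 44 tested. Of the 57 interferon response and antigen presentation genes, 29 of 56 tested were higher and 0 lower, and the single one ended by a changed peak, *Gbp4*, was not called (limma adjusted p = 0.00122, log2 fold change 0.31). The promoter nearest to this peak was that of *Gbp9*, which was called higher (log2 fold change 0.51, limma adjusted p = 0.000504). On the list of 66 histone genes, which does not hold *H1f10*, 1 was ended by a changed peak. Its symbol, *H4f16*, was not matched in the RNA-seq table, which uses a newer symbol that the synonyms used here did not link.

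The nearest promoter belonged to another gene than the one ended for 350 of the 699 peaks (50.1%). In 167 of these the neighbour lay on the same strand with the peak before its start, as in a tandem pair, and in 131 it lay on the opposite strand with the peak after its start, as when ends converge. Another gene's body covered 141 peaks (20.2%). Of the 664 genes with the nearest promoter, 416 were tested and 96 called (23.1%, against 17.6% of all tested genes). Of these, 57 were higher (13.7%, against 10.5%) and 39 lower (9.38%, against 7.05%). Their share moving with the peak was 79.2%, close to the 77.6% of the ended genes, and 347 genes were in both lists. For genes with a gene-end peak nearest to their own promoter, 80.8% of 52 called genes moved with the peak. It was 73.9% of 46 for ended genes with a nearer foreign promoter, and 76.7% of 43 for nearest-promoter genes that no gene-end peak ended. At *Fut7*, *Plat* and *Slc5a3*, the gene with the nearest promoter was called in the same direction as the ended gene, so the peak cannot be given to either gene alone. For the peaks at the called genes *Rnf43*, *Il4ra*, *Il6ra*, *Tnfrsf1b*, *Dusp2*, *Rora*, *Map3k20*, *Kif5a* and *Stac2*, the nearest promoters were those of *Supt4a*, *Il21r*, *She*, *Vps13d*, *Astl*, *Ice2*, *Cdca7*, *Pip4k2c* and *Rpl19*, in that order, and these neighbours were tested and not called. At *Slc6a19*, *Srgap1* and *2900026A02Rik* the nearest start, 2655, 41474 and 9412 bp from the peak, was also closer than the gene's outermost annotated start. Expression from these starts is not described here. Neither way of naming the gene was far ahead over all genes, and the difference between these shares was not tested.

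Among peaks with another gene's promoter nearest and both genes tested, the 8 with the largest absolute differences went either way. The *Zfp148* 3' UTR peak gained 1.96 (chr16:33499123-33499523), and *Zfp148* averaged 27839 and 26949. The nearest promoter, 18005 bp away, was that of *Slc12a8*, a solute carrier, with counts of 38.6, 19.7 and 39.7 in WT cells and 72.0, 99.3 and 132 in UTX TCD cells (log2 fold change 1.62, SE 0.34, limma adjusted p = 0.00490). Here the neighbour and not the ended gene was called. The TTS peak of *Cdc23*, a subunit of the anaphase-promoting complex, gained 2.03 and had *Kif20a*, a mitotic kinesin, as its nearest promoter. *Kif20a* averaged 1173 ± 55.8 and 1971 ± 319 (SD, n = 3; log2 fold change 0.74, limma adjusted p = 0.000766), and *Cdc23* 12832 and 14267 (log2 fold change 0.15, not called). *Slc5a3*, the myo-inositol transporter, overlaps *Mrps6*, a mitochondrial ribosomal protein gene, and reads of the pair cannot be separated with certainty. Their annotated starts nearly coincide (chr16:92058322 and chr16:92058336), so the promoter of *Mrps6* cannot be told apart from that of *Slc5a3*. *Mrps6* was under the fold limit at 0.49 without UTX TCD replicate 1, UTX TCD replicate 2 or WT replicate 3. Both were called higher (log2 fold changes 0.79 and 0.52, limma adjusted p = 0.000352 and 0.000628) beside a gain of 1.87.

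In the other 5 of these 8 pairs neither gene was called. The peak beyond *Prkrip1* had a difference of -2.92 and its nearest promoter was that of *Orai2*, a calcium channel subunit with counts of 42311, 32480 and 43801 in WT cells and 28574, 30766 and 27050 in UTX TCD cells. The groups did not overlap, and the log2 fold change of -0.45 was under the limit (SE 0.10, limma adjusted p = 0.00832). Without WT replicate 2 it was -0.58 and called. The end of *Orai2* itself had 2 less accessible peaks (-0.36 and -0.32). The *Atp9b* 3' UTR held 2 peaks with differences of -2.61 and -0.68, with *Nfatc1*, a calcineurin-regulated factor, as the nearest promoter. *Nfatc1* averaged 37259 ± 1201 and 31995 ± 127 (SD, n = 3; log2 fold change -0.22, limma adjusted p = 0.00242). *Ksr1* with *Gm11201*, *Abcc10* with *Dlk2* and *Pus7* with *AI506816* had log2 fold changes between -0.10 and 0.45.

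The median distance from a gene-end peak to the nearest other listed peak was 11955 bp, beside 12150 bp for all listed peaks. Of the 181 gene-end peaks with another listed peak of any class within 5 kb, 160 (88.4%) differed in the same direction as it, and of the 90 with no other listed peak within 50 kb, 61 (67.8%) shared the direction of the nearest one. The same shares over all listed peaks were 89.95% and 74.4%. Of the 675 ended genes, 23 had several gene-end peaks, and in 19 of these all went the same way, 9 up and 10 down. *Dmrta2*, a developmental transcription factor gene averaging 8.60 and 8.38 normalized counts and not tested, had peaks with differences of 1.93 and 1.78. A promoter peak of the same gene was listed for 123 ended genes. In the 122 of them whose promoter peaks had a single direction, 89 gained and 14 lost at both places, 14 lost at the end and gained at the promoter, and 5 did the opposite. These peaks come from the same libraries and are not independent. Of 84 tested genes with a promoter peak 28 were called (33.3%), and of 380 without one 70 (18.4%). The 142 tested genes for which the gene-end peak was the only listed peak had 12 called (8.45%), and 7 of these moved with it. Over all tested genes 17.6% were called.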

How the data were processed

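RNA-seq signal per gene was deposited by the authors as counts divided by 1 size factor per library, after alignment to mm10 with HISAT2 2.2.1, counting with featureCounts and normalization with DESeq2. Annotation and strand setting were not given in the sources used here, which leaves values of overlapping or antisense genes uncertain. In ATAC-seq processing the authors trimmed reads, aligned them with Bowtie2, removed duplicates with Picard, called peaks with MACS2, compared genotypes with DiffBind and annotated peaks with HOMER. The deposited log2 concentrations are means over a genotype's libraries, and a shift for the transposase was not stated. Fold, p and FDR columns of peaks, and fold change, standard error and adjusted p columns of genes, hold the authors' own comparisons and were not used. All listed peaks had an FDR under 0.05.

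Whole reads were recovered for 100% of RNA-seq values (tolerance 0.01 reads). The limma 3.58.1 fit, run under R 4.3.3, took genes whose mean reached 10 normalized counts (lmFit, eBayes with trend, pseudocount 1, genotype only, Benjamini-Hochberg adjustment). Fold changes on this scale understate the change of low genes. The test was checked on simulated reads. On the recovered reads, edgeR 4.0.16 called 2541 genes and DESeq2 1.42.0 called 2422. For a single gene, 3 libraries against 3 allow no exact permutation p below 0.10. Replicate libraries of a genotype differed by more than counting noise, with a chi-square per gene from 12.5 to 110.4.

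The ended gene came from the transcript that HOMER names, matched to RefSeq genes of GRCm38.p6, and the nearest-promoter gene from HOMER's promoter. With several peaks, a gene took the direction of the largest difference. Genes named in the text were the 10 largest gains and losses, list members called or with a difference past 1, the 8 largest rises and falls of called genes without overlap, the 8 largest differences of peaks with another gene's promoter nearest and both genes tested, the 5 genes with most peaks, the 5 largest opposite changes and *Kdm6a*, apart from a few that are not reported here. *Il7r*, *Slamf6*, *Bcl11b*, *Satb1*, *Junb*, *Nr4a1*, *Gbp4*, *H4f16* and the marker genes were named beside this rule, after their values were seen, as was the CpG limit. Also outside the rule were the nearest-promoter genes *Abca2*, *Ap3m2* and *Gbp9*, and the neighbours listed as tested and not called, from *Supt4a* to *Rpl19*. These nearest-promoter genes were not followed through the alternative fits. Members and lists were chosen with earlier results of these data known. Letters of the CTCF core were CC and AG with 3 bases between them, then 2 bases and GGC. Alternatives covered the pseudocount, filter, scaling, test, fold limit, replicate block, peak subsets and each library left out.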

Additional observations from a re-analysis of the deposited data

How the results depend on the processing

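Counts of called genes depended on the fold limit. With no fold limit, 5887 genes, 227 ended genes and 201 nearest-promoter genes were called, and with a limit of 1 they were 1253, 49 and 47. Fewer peaks gave fewer genes: TTS peaks alone gave 49 ended and 61 nearest-promoter genes, and 3' UTR peaks alone 52 and 41. Of gene-end peaks with a mean signal above the median of all listed peaks, 62.5% were more accessible. The cause was not tested. Other pseudocounts, filters, scalings and count tests left the counts within 1.5 times, and the share of called ended genes moving with their peak stayed between 72.7% and 83.7% over all alternatives tried. Leaving out a library gave from 2164 to 2570 called genes, 87 to 103 ended genes, 79 to 98 nearest-promoter genes, and a share of 77.7% to 80.0%. Same-numbered libraries did not pair (r of their deviations 0.31, -0.20 and 0.09), and with the replicate block 2474 genes and 95 ended genes were called. Of the 29 called genes among those named by the rule, 25 passed the limits in every alternative fit that gave a value. *Hmgcs1* was under the fold limit with libraries scaled to the same sum, at -0.47, and *Mrps6* without each of 3 libraries, at 0.49. Some log2 fold changes of genes not called changed sign. Scaling libraries to the same sum moved the median of all genes by 0.062, and with it the values became 0.040 for *Zmiz2*, 0.018 for *Prkrip1*, 0.043 for *Pus7* and 0.016 for *Zfp148*. With a library left out they ran from -0.00036 to 0.39 for *Scn8a*, -0.092 to 0.0033 for *Prkrip1*, -0.14 to 0.0013 for *Ets1* and -0.061 to 0.023 for *Pus7*. The cause of the latter was not tested. Depth limits genes near 3 reads per library, and accessibility had no values per library.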

Other observations

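Of 197 gene-end peaks at transcripts under 10 kb, 73.1% were more accessible, 48.2% had a difference over 0.5 and 16.8% one under -0.5. Of the 179 peaks at transcripts of 50 kb or more, 63.1% were more accessible, 50.8% had a difference over 0.5 and 31.3% one under -0.5. The median differences were 0.48 and 0.50. Chromosome 13 had the highest median difference (0.96 over 21 peaks) and chromosome 18 the lowest (0.27 over 17 peaks). On chromosome X, 7 of 10 gene-end peaks were more accessible. Further genes called with their gene ends, chosen after their values were seen, were *Nrp2*, a semaphorin coreceptor, with a difference of -1.87 and a log2 fold change of -2.35 (limma adjusted p = 3.98e-08), and *Sgk1*, a kinase of ion transport, with -1.29 and -1.04 (limma adjusted p = 3.73e-05).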
